A study of Mus musculus with 12 samples.

Results

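Induced pluripotent stem cells (iPSC) of high mitochondrial membrane potential were compared with iPSC of low potential on 6 of the series' 12 expression arrays, chosen by their labels as iPSC high or iPSC low. The iPSC were female cells of C57BL/6 background with no further allele or transgene named in the labels, which also do not say how they were reprogrammed or whether they were a single line. All cells were undifferentiated, grew without serum or feeders on gelatin in 2iLIF medium, and were stained with TMRM (tetramethylrhodamine methyl ester) before flow sorting. The iPSC low group held 3 arrays of the dim fraction and the iPSC high group 3 arrays of the bright fraction, each numbered 2, 3 and 4. The other 6 arrays were embryonic stem cells (ESC) of the same sex, background, medium and stain, sorted the same way into 3 low and 3 high arrays. They entered the fit to share its estimate of spread and are otherwise used only where iPSC and ESC differences are set side by side.

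The inner mitochondrial membrane carries an electrical potential that the respiratory chain builds by pumping protons out of the matrix. ATP synthase spends that potential, and protein import and metabolite carriers depend on it. TMRM is a fluorescent cation that collects in mitochondria according to this potential. Pluripotent cells in 2iLIF, a medium with inhibitors of MEK and GSK3 plus the cytokine LIF, hold a naive state and keep cycling.

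Pluripotency markers were measured in both fractions. They do not tell iPSC from ESC, and levels of different probe sets cannot be ranked against each other. Mean log2 values over the 3 arrays were 10.62 in low and 10.55 in high for Nanog, 9.03 and 8.93 for Sox2, and 6.09 and 5.93 for Pou5f1. Dppa5a, another of the 8 such markers, had means of 3.89 and 3.87. Fibroblast markers, which would mark cells of another kind, had means from 1.32 to 4.08 (8 genes), and their summed level was 5.87 to 5.92 in low and 5.94 to 6.01 in high. The deposited values are log2 expression values without detection calls, so they cannot be set against background, and the lower quartile of the 6 arrays was 2.08 to 2.20. The arrays were alike (Pearson r across probe sets 0.992 to 0.994 within groups and 0.989 to 0.994 between them), with medians of 3.51 to 3.61. The distributions still differed slightly: the SD over probe sets was 2.33, 2.33 and 2.36 in low and 2.30, 2.30 and 2.29 in high. With probe sets split by mean level into 5 equal bins, the median difference was 0.02, 0.08 and 0.06 in the dimmer bins and -0.07 and -0.05 in the brighter bins. The part of this tilt in the results below was not tested.

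In the high fraction 17 mitotic genes, the histone genes H3c14 and H3c15 and 12 imprinted microRNA genes rose. Falls were called in 3 members of the list of S-phase entry and DNA replication, 6 p53 targets and Rb1. Of 25206 probe sets, 88 were higher (0.349%) and 50 lower (0.198%) in iPSC high at an adjusted p under 0.05 (limma, Benjamini-Hochberg). Without the adjustment, 1775 were higher (7.04%) and 1422 lower (5.64%) at p under 0.05. In 2459 probe sets (9.76%) all 3 high arrays lay above all 3 low arrays, and in 2413 (9.57%) all lay below. These shares are the background for every count of list members that follows. Nothing in the labels names separate cultures behind the arrays. The p-values therefore reflect sample-to-sample spread alone, and this may be technical. A pool of sorted cells also cannot tell fewer cells of a kind from less RNA per cell.

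The number of calls rested on single arrays. Without iPSC high 4, 0 probe sets were higher and 1 was lower, the anoctamin Ano3. Without iPSC low 4 the counts were 9 and 4, without iPSC low 3 they were 15 and 20, and without iPSC high 3 they were 26 and 11. Without iPSC high 2 they were 39 and 21, and without iPSC low 2 they were 148 and 60. All 138 called probe sets kept their direction in each of these fits. The same arrays chose these probe sets, and groups that do not overlap keep their direction without any 1 array. The kept direction is therefore no test of the calls. With the replicate number as a block, 142 were higher and 94 lower. With the block and the 6 iPSC arrays alone, 6 were higher and 3 lower. After subtraction of array medians, 70 were higher and 85 lower, so the share of higher calls went from 63.8% to 45.2%.

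**Figure D1:**
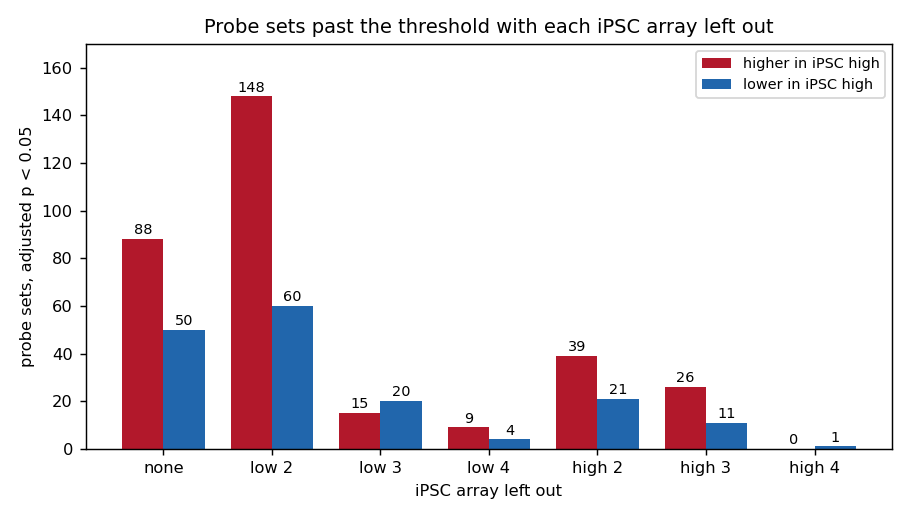
Bars give the number of probe sets past the threshold of the adjusted p (y axis) that were higher (red) or lower (blue) in iPSC high, with no array or each of the 6 iPSC arrays left out (x axis). The count runs from 148 higher without low 2 to 0 higher without high 4.

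A minority of mitotic genes rose in the high fraction, and the others did not pass the test. Many of the listed genes, but not all, are transcribed from late S phase onward. Their products take part in chromosome condensation, spindle assembly and division. Of 140 measured members of 5 mitotic lists, 17 rose (12.1%, against 0.349% of all probe sets), 0 fell, and 106 had a difference above 0. In 64 of the 140 (45.7%) the high arrays lay wholly above the low arrays, and in 4 wholly below. The median difference was 0.15 on the log2 scale, against 0.00 over all probe sets. The count of 17 fell to 8 without iPSC high 3, 4 without iPSC high 2 or low 4, 3 without iPSC low 3 and 0 without iPSC high 4. It was 7 in a fit to the 6 iPSC arrays alone, 0 when that fit had the replicate block, and 27 with an intensity trend and robust variances.

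The kinases that start and steer mitosis were among the members that rose, 5 of 22 (median 0.21). Aurka, the kinase of centrosomes and spindle poles, stood at 7.35, 7.18 and 7.44 on iPSC low arrays 2, 3 and 4 and at 8.24, 8.07 and 8.26 on the high arrays. The groups did not overlap, and the difference was 0.87 ± 0.12 on the log2 scale (SE; adjusted p = 0.0129), a 1.82-fold change. Aurkb and Incenp, catalytic subunit and scaffold of the chromosomal passenger complex, rose by 0.64 ± 0.10 and 0.60 ± 0.09. Birc5 and Cdca8, further subunits of that complex in the list, were at -0.05 and 0.17 and did not pass. Cdk1, the kinase that drives entry into mitosis, went from 7.33, 7.31 and 7.28 in low to 8.05, 7.83 and 8.10 in high, a rise of 0.68 ± 0.11 (adjusted p = 0.0241). Plk1, a polo kinase of spindle assembly, rose by 0.54 ± 0.10 (adjusted p = 0.0403, or 0.0509 with the replicate block). The checkpoint kinase Bub1b was at 0.33 ± 0.11 and did not pass (adjusted p = 0.186).

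Among cyclins, CDC25 phosphatases and the anaphase-promoting complex, the ubiquitin ligase that ends mitosis, 2 of 27 rose (median 0.03). Ube2c, the E2 enzyme that feeds this ligase, was at 8.48, 8.35 and 8.42 on the low arrays and at 9.18, 9.07 and 9.10 on the high arrays. The gap between the groups was wider than the spread within either, and the rise was 0.70 ± 0.08 (adjusted p = 0.00895), or 1.62-fold. Fzr1, the ligase's activator in late mitosis and G1, rose by 0.76 ± 0.14 (adjusted p = 0.0374). Cyclin F (Ccnf, 0.48 ± 0.10, adjusted p = 0.0624), the activator Cdc20 (0.48 ± 0.11) and the phosphatase Cdc25b (0.47 ± 0.12) did not pass, although their high arrays lay above all low arrays.

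The spindle list also held genes that rose. In the list of kinesins, spindle and cytokinesis proteins, 28 of 35 members (80%) had all high arrays above all low arrays, 0 had them below, 7 rose, and the median difference was 0.29. Nusap1, which bundles spindle microtubules, read 6.41, 6.47 and 6.38 in low and 7.20, 7.16 and 7.08 in high, a rise of 0.73 ± 0.09 (adjusted p = 0.00995). Prc1, which crosslinks the midzone of the spindle, rose by 0.68 ± 0.11, and Kif11, the kinesin that pushes spindle poles apart, by 0.55 ± 0.09. Fam83d, a spindle protein, showed the largest rise of the list at 0.91 ± 0.15 (adjusted p = 0.0245). Troap (0.49 ± 0.08) and the kinesin Kif18b (0.59 ± 0.10) also rose.

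At the kinetochore and centromere, where chromosomes attach to the spindle, 2 of 40 members rose (median 0.05) and 13 had all high arrays on top. Cenpf, a large protein of the outer kinetochore, stood at 7.40, 7.38 and 7.51 in low and 8.23, 8.11 and 8.27 in high (0.77 ± 0.11, adjusted p = 0.0135). Cenpl, of the constitutive centromere network, rose by 0.79 ± 0.13 (adjusted p = 0.0222). The checkpoint protein Bub3 was at 0.43 ± 0.10 and Hjurp, the loader of centromeric histone H3, at 0.33 ± 0.08, neither past the threshold. Cenpq lay the other way at -0.43 ± 0.14 (adjusted p = 0.212). In the list of condensin, topoisomerase and chromosome genes 1 of 16 rose, Top2a, which untangles sister chromatids (0.48 ± 0.08, adjusted p = 0.0227), while the condensin core Smc4 was at 0.30 ± 0.09 (adjusted p = 0.159). Cdca2, which targets a phosphatase to chromatin at mitotic exit, lies outside the lists and was picked after its values were seen. It rose by 0.62 ± 0.10.

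**Figure D2:**
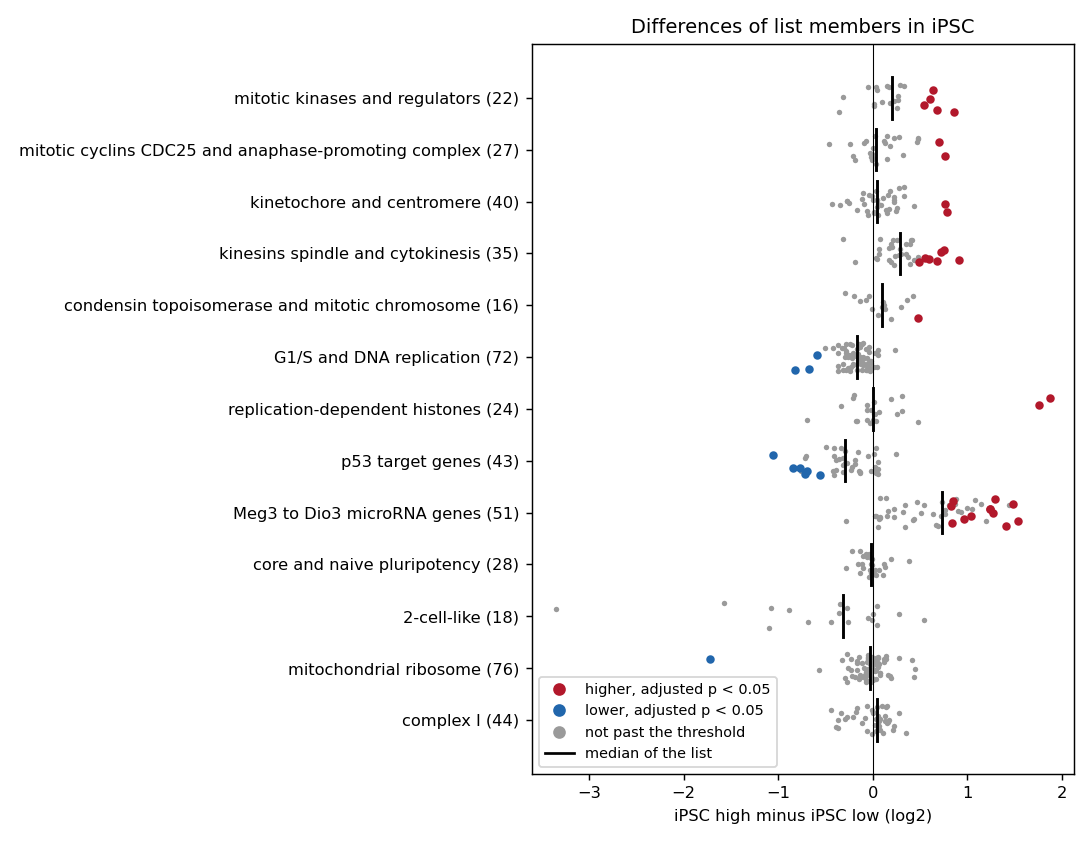
Each point is a member of a gene list, placed by its log2 difference iPSC high minus iPSC low (x axis). Red and blue mark members past the threshold, grey the others, bars the list median, and the number in brackets the members measured. The spindle, kinase and microRNA lists lie mostly right of 0, and the G1/S and p53 lists mostly left.

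The promoters of the mitotic genes are shown because many hold the letters of 2 known cell cycle elements. The CHR element (TTTGAA) and the CCAAT box are bound by the DREAM, MuvB and NF-Y complexes at genes of G2 and mitosis. In the RefSeq promoter windows (GRCm38.p6, 250 bases before to 50 after a start, both strands searched), TTTGAA was found in 12 of 16 windows (75%) of the 17 mitotic genes that rose, 15 of which had a window. It was in 56 of 121 windows (46.3%) of the other mitotic genes and in 17.9% of all 32851 windows. The whole list of kinesins, spindle and cytokinesis proteins, most of which did not pass, also had it in 75% of windows (27 of 36). The G1/S list had it in 15.5% and the p53 targets in 9.09%. CCAAT was in 14 of the 16 (87.5%), in 61.2% of windows of the other mitotic genes and in 37.4% of all windows. It was in 56.3% of windows of the G1/S list and 52.3% of those of the p53 targets. The 2 motifs share no letters where they were found in the sequences below. A match is a description of the letters, not of binding. For 4 of the genes that rose, the 100 bases before the start read as follows, 5′ to 3′ on the gene's strand, with both motifs in capitals on either strand (TTCAAA and ATTGG are the reverse complements).
Ube2c, chr2:164769829-164769928, plus strand: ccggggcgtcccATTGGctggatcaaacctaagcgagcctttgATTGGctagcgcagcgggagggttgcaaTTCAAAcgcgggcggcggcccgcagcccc
Kif11, chr19:37376282-37376381, plus strand: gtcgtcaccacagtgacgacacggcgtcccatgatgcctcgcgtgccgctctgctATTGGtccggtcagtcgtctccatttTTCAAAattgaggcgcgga
Cdk1, chr10:69352913-69353012, minus strand: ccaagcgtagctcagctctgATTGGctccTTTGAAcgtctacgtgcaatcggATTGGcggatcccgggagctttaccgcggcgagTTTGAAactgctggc
Top2a, chr11:99024190-99024289, minus strand: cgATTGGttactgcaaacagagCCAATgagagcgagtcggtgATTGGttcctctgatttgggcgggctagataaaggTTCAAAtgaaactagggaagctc
In each of the 4 a CCAAT box stands upstream of a TTTGAA element near the start. Of the windows of genes that fell in iPSC high, 0 of 37 held TTTGAA and 16 held CCAAT.

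Genes of S-phase entry and DNA replication leaned the other way. Of 72 measured members 3 fell (against 0.198% of all probe sets), 0 rose, and only 6 had a difference above 0. In 33 (45.8%) the high arrays lay wholly below the low arrays, against 9.57% of all probe sets, and in 1 wholly above. The median was -0.16. Ccne2, the cyclin that partners CDK2 at the start of S phase, was at 6.23, 6.18 and 6.25 in low and at 5.30, 5.53 and 5.36 in high. The groups were far apart, and the fall was -0.82 ± 0.13 (adjusted p = 0.0173). Cdc6, which loads the replicative helicase at origins, read 7.24, 7.52 and 7.35 in low and 6.71, 6.94 and 6.69 in high (-0.59 ± 0.11, adjusted p = 0.0367). Ung, which removes uracil from DNA, fell by 0.67 ± 0.13 (adjusted p = 0.0392). Ccne1 (-0.24 ± 0.10), the repressor E2f8 (-0.50 ± 0.11, adjusted p = 0.0766), the origin subunit Orc6 (-0.37 ± 0.10) and the histone mRNA binder Slbp (-0.37 ± 0.10) did not pass, and in each the high arrays lay below the low arrays. The 3 calls became 0 without iPSC low 3, low 4, high 2 or high 4, and 1 without ESC low 3 or with quantile normalization.

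Rb1 fell furthest among the regulators that hold cells before S phase. This pocket protein binds and silences E2F factors. Its values were 6.68, 6.70 and 6.80 in low and 5.87, 5.94 and 5.90 in high. The groups were well apart, the difference was -0.83 ± 0.09 (adjusted p = 0.00517), a 1.77-fold change, and it passed in 5 of the 6 fits that left out an iPSC array. The other pocket proteins Rbl1 (0.11 ± 0.12) and Rbl2 (-0.10 ± 0.10) did not pass, and Rb1 was the 1 call among 21 members of the list of pocket proteins and CDK inhibitors (median -0.03). The CDK inhibitor Cdkn1a was at -0.39 ± 0.16 (adjusted p = 0.349). Dscc1, a subunit of the clamp loader that works in sister chromatid cohesion, was named after its values were seen: 5.92, 6.11 and 6.07 in low and 5.19, 5.30 and 5.20 in high (-0.80 ± 0.11, adjusted p = 0.0129). Its partner subunit Chtf18 was at -0.14 ± 0.10.

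Histone transcripts did not move as a class. Of 24 measured replication-dependent histone genes 2 rose, 0 fell and 12 were above 0, with a median of 0.01. The 2 were H3c15 and H3c14. H3c15 read 2.82, 2.78 and 2.84 in low and 3.90, 4.92 and 4.90 in high (1.76 ± 0.23, adjusted p = 0.0129). H3c14 read 4.43, 4.50 and 4.12 in low and 5.63, 6.67 and 6.37 in high (1.87 ± 0.29, adjusted p = 0.0182), the largest rise of any named gene at 3.67-fold. In both, high array 2 was lower than high arrays 3 and 4 but above every low array. These genes are near-identical neighbours, and their 300-base promoter windows share an unbroken stretch of 231 bases. Whether the array's probes tell the copies apart was not tested. Of the other members, H2bc4 was at -0.70 ± 0.19 and H4c9 at 0.48 ± 0.17, neither past the threshold and both dim. Casp8ap2, a factor of histone mRNA processing and of death receptor signalling outside the histone list, fell by 0.51 ± 0.09 (adjusted p = 0.0258, or 0.0511 with the replicate block).

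**Figure D3:**
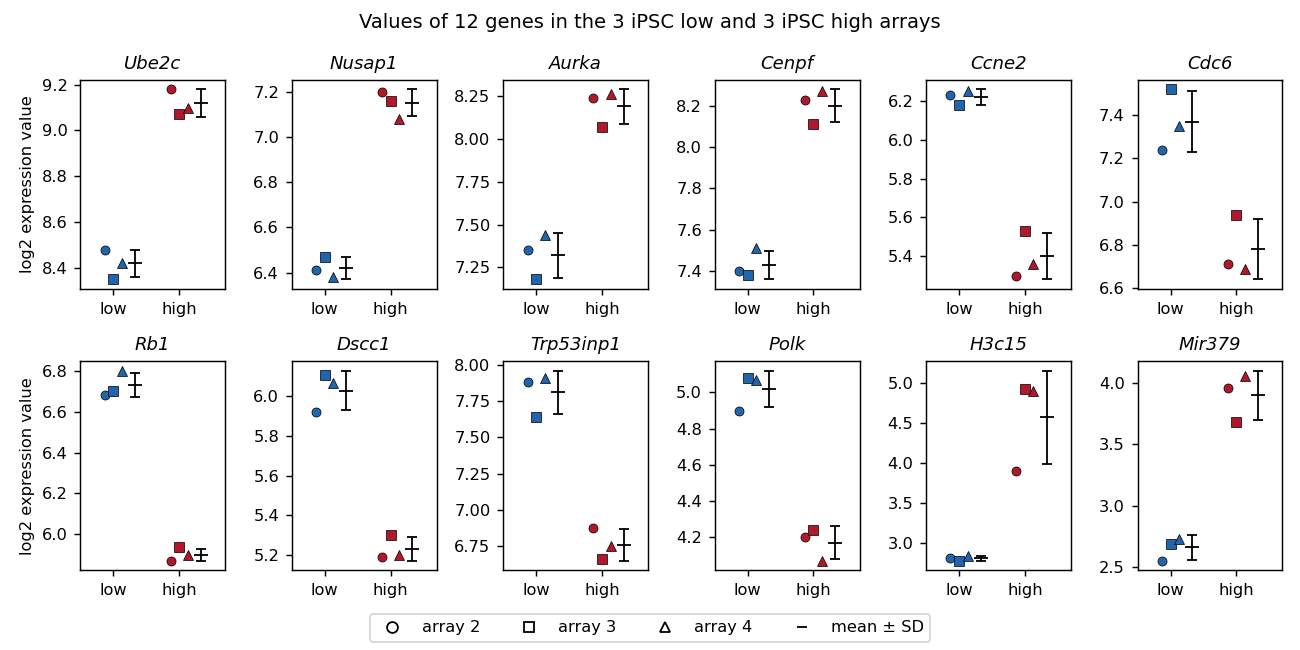
Each panel shows the log2 expression value (y axis) of a gene on the 3 iPSC low (blue) and 3 iPSC high (red) arrays, with the marker giving the array number and bars the mean ± SD. In all 12 panels the groups do not overlap, and H3c15 has the widest spread in high, where array 2 is at 3.90.

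Some targets of p53, the transcription factor that answers DNA damage and stress, fell in the high fraction, and most did not pass the test. Of 43 measured targets 6 fell, 0 rose and 9 were above 0, with a median of -0.29. In 22 (51.2%) the high arrays lay wholly below the low arrays and in 0 wholly above. The count of 6 fell to 3 without iPSC low 2, iPSC high 2 or ESC low 4, to 2 without iPSC high 3 or in the 6 iPSC arrays alone, and to 0 without iPSC low 4 or high 4. Trp53inp1, a stress-induced partner of p53, had values of 7.88, 7.64 and 7.91 in low and 6.88, 6.66 and 6.75 in high. The fall was -1.05 ± 0.14 (adjusted p = 0.0129), or 2.07-fold. Polk, a translesion DNA polymerase, read 4.90, 5.08 and 5.07 in low and 4.20, 4.24 and 4.07 in high (-0.85 ± 0.11, adjusted p = 0.0129). Of its relatives, Rev1 was at -0.42 ± 0.09 (adjusted p = 0.0718) and Polh at 0.18 ± 0.14.

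Pidd1, which takes part in the activation of caspase-2, fell by 0.71 ± 0.11 (adjusted p = 0.0155). Casp2, outside the list and picked after its values were seen, fell by 0.58 ± 0.09 (adjusted p = 0.0222). Ccng1, a cyclin-like regulator, went from 8.80, 8.54 and 8.85 to 8.12, 7.88 and 8.12, a fall of -0.69 ± 0.13 (adjusted p = 0.0351). Phlda3, which competes with AKT for the membrane, fell by 0.77 ± 0.15. Zmat3, an RNA-binding protein, fell by 0.56 ± 0.11 (adjusted p = 0.0463, or 0.0579 with the replicate block). Mdm2, the ligase that degrades p53, was just short of the threshold at -0.49 ± 0.10 (adjusted p = 0.0505). None of 20 measured BCL2 family members passed (limma; 1 at an unadjusted p under 0.05 and 0 with the replicate block; median -0.05). The death-promoting Hrk was at -0.40 ± 0.18 and Bcl2l11 at -0.33 ± 0.16.

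The imprinted domain between Meg3 and Dio3 on chromosome 12 encodes a large set of maternally expressed microRNAs, cut from long noncoding transcripts. It is known in iPSC because its silencing separates iPSC lines. The arrays measured RNA that matches the microRNA genes in total RNA, and cannot tell mature from precursor or host RNA. This set was singled out with its values known. Of its 51 measured microRNA genes 12 rose (23.5%), 0 fell and 50 were above 0, with a median of 0.73. In 35 (68.6%) the high arrays lay wholly above the low arrays. Of the other 476 microRNA genes 3 rose and 3 fell, with a median of 0.04. All 51 genes matched a mature sequence in the RefSeq table (GRCm38.p6). The 3p arm is shown for the 12 that rose, since it was listed for each, 5′ to 3′ in order along the plus strand with the seed (bases 2 to 8) in capitals.
miR-379-3p, chr12:109709102-109709123: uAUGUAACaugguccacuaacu
miR-411-3p, chr12:109710225-109710246: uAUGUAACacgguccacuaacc
miR-329-3p, chr12:109713541-109713562: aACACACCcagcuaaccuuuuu
miR-543-3p, chr12:109717304-109717325: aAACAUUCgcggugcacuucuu
miR-544-3p, chr12:109729371-109729392: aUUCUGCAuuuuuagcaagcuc
miR-382-3p, chr12:109733819-109733840: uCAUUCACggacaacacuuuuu
miR-485-3p, chr12:109734946-109734967: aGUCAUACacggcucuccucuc
miR-496a-3p, chr12:109739165-109739186: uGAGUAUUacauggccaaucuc
miR-541-3p, chr12:109742466-109742487: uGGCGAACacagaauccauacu
miR-409-3p, chr12:109743204-109743225: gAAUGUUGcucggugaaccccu
miR-412-3p, chr12:109743340-109743359: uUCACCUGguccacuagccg
miR-369-3p, chr12:109743466-109743486: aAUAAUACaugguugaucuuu
Only miR-379-3p and miR-411-3p share a seed among these 12. Their genes are neighbours, and the other 10 seeds differ, so the genes that rose do not form a seed family.

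The genes that rose sat in the distal cluster, from Mir379 to Mir369. Of 36 measured genes in that stretch 12 rose, 31 had all high arrays above all low arrays, and the median difference was 0.88. Of the 14 genes before it, from Mir673 to Mir882, 0 rose (limma), 3 had an unadjusted p under 0.05, 3 had the high arrays on top and the median was 0.18. The single gene after it, Mir1247, was at 0.32 ± 0.17. The difference between the stretches was not tested, since it was seen in the values first. Mir379 read 2.55, 2.69 and 2.73 in low and 3.96, 3.68 and 4.06 in high (1.24 ± 0.15, adjusted p = 0.00895). Mir369, at the other end, read 3.47, 3.27 and 3.24 in low and 4.78, 4.54 and 5.14 in high (1.49 ± 0.20, adjusted p = 0.0129). Both changes exceeded the spread of either group.

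Mir412 showed the largest difference of the domain, from 1.93, 1.69 and 2.21 to 3.03, 3.73 and 3.69 (1.54 ± 0.28, adjusted p = 0.0323), a 2.91-fold change from a level below the arrays' lower quartile or near it. Mir329 was the brightest of the 12, at 7.60, 7.52 and 7.48 in low and 8.43, 8.17 and 8.54 in high (0.85 ± 0.13, adjusted p = 0.0173). The remaining 8 (Mir409, Mir543, Mir485, Mir496a, Mir544, Mir411, Mir541 and Mir382) rose by 0.83 to 1.41. Of these, Mir411 started from a mean of 1.74 in low, below the arrays' lower quartile, and Mir541 from 2.48, not far above it. Of the host transcripts, Meg3 was at 0.42 ± 0.12 (adjusted p = 0.162), Rian at 0.21 ± 0.10 and Mirg, which spans the distal microRNAs, at 0.62 ± 0.18 (adjusted p = 0.149). None of these 3 passed (limma, also with the replicate block), and in all 3 the high arrays lay above the low arrays. The paternally expressed protein genes Dlk1 (0.07 ± 0.18), Rtl1 (0.01 ± 0.29) and Dio3 (0.14 ± 0.27) overlapped between groups. With the replicate block 21 of the 51 rose, and with array weights 19. Without ESC low 2 the count was 19, without iPSC high 3 it was 6, without iPSC high 2 it was 5, without iPSC low 3 it was 3, without iPSC low 4 it was 2 and without iPSC high 4 it was 0. With the block and the 6 iPSC arrays alone it was 1.

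**Figure D4:**
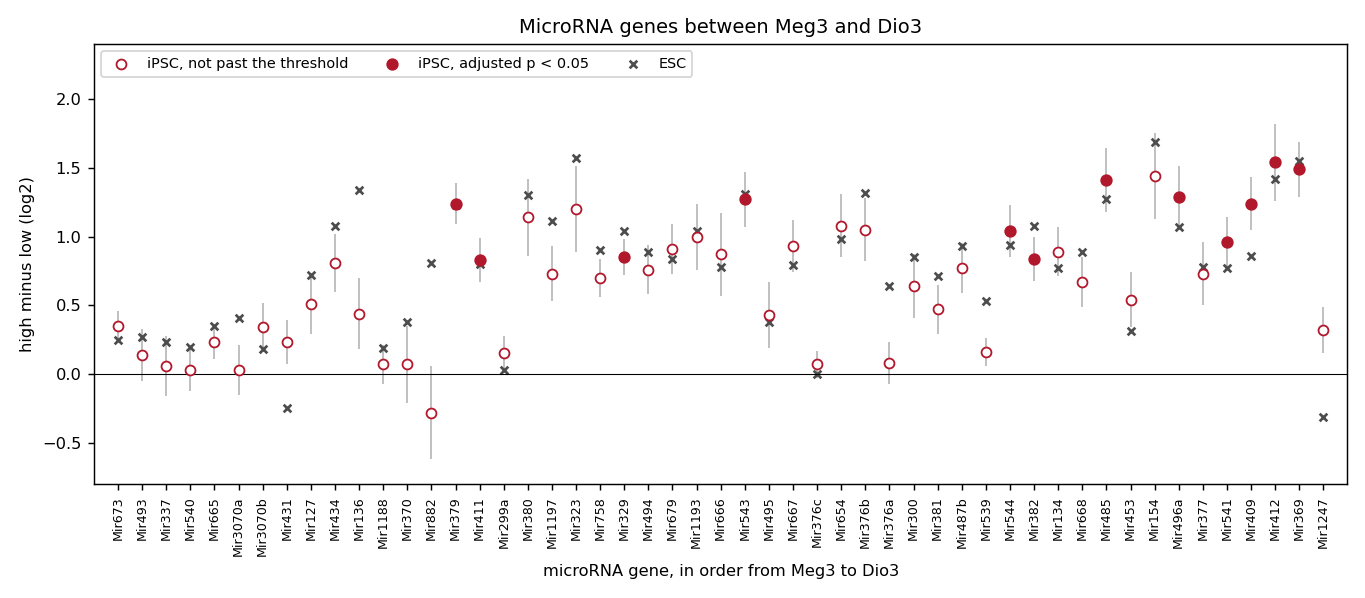
The log2 difference high minus low (y axis) is shown for 51 microRNA genes in their order from Meg3 to Dio3 (x axis). Circles are iPSC with SE bars, filled where past the threshold, and crosses are ESC. Filled circles begin at Mir379 and end at Mir369, and Mir882 is the only gene below 0 in iPSC.

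Elsewhere in the genome, Mir138-2 (1.42 ± 0.25, adjusted p = 0.0258, or 0.0509 with the replicate block), Mir324 (0.94 ± 0.17) and Mir365-1 (0.64 ± 0.13, adjusted p = 0.0461, or 0.0525 with the block) rose. Mir3068, also on chromosome 12 but outside the domain, fell from 6.51, 6.75 and 6.09 to 5.45, 4.33 and 4.19 (-1.80 ± 0.32, adjusted p = 0.0305). Mir196a-1, in a HOX cluster, fell by 1.12 ± 0.19, and Mir5133 by 0.73 ± 0.13 (adjusted p = 0.0351, or 0.0587 with the block).

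Among secreted signals, Ntn3, Fgf18 and Il11 rose. Ntn3, a secreted netrin, stood at 4.17, 3.76 and 3.60 in low and 5.56, 5.09 and 5.15 in high (1.42 ± 0.17, adjusted p = 0.00895). It was the 1 call among 12 netrins and their receptors. Fgf18 was at 4.69, 3.82 and 3.98 in low and 5.42, 5.60 and 5.99 in high (1.50 ± 0.27), the 1 call among 27 fibroblast growth factors and receptors (median 0.06), while Fgf9 was at 0.58 ± 0.17 and Fgf22 at 0.50 ± 0.14. Il11, a cytokine of the interleukin-6 family, read 3.22, 2.84 and 2.66 in low and 3.90, 4.15 and 4.75 in high (1.36 ± 0.26, adjusted p = 0.0409, or 0.0511 with the replicate block). Among 43 interleukin genes it was the 1 call, and Il17f (1.13 ± 0.25, adjusted p = 0.0664, or 0.0294 with the block) and Il17c (0.93 ± 0.22, adjusted p = 0.0843) came next. In these genes the high arrays lay above the low arrays, with low array 2 the highest of the low group in Ntn3, Fgf18, Il11, Il17f and Il17c.

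Receptors and enzymes followed. Gpr83, a neuropeptide receptor, rose from 3.47, 2.85 and 2.27 to 4.45, 4.57 and 4.21 (1.55 ± 0.30, adjusted p = 0.0403). Gpr75 rose by 1.19 ± 0.21, the bitter taste receptor Tas2r108 by 1.24 ± 0.22 and the chemokine receptor Ccr4 by 1.14 ± 0.21 (adjusted p = 0.0371, or 0.0552 with the replicate block). Gdpd2, a glycerophosphodiester phosphodiesterase, was at 2.58, 2.60 and 2.17 in low and 3.53, 4.07 and 3.65 in high (1.30 ± 0.19, adjusted p = 0.0129). Ephx3, an epoxide hydrolase, rose by 1.14 ± 0.16, while its relative Ephx1 was at -1.31 ± 0.37 (adjusted p = 0.145, or 0.021 with the block). The transporter Slc22a13b (1.29 ± 0.22), Plac8l1 (1.46 ± 0.23), Myocos (1.12 ± 0.16) and Tex29 (1.29 ± 0.25, adjusted p = 0.0403, or 0.0731 with the block) completed the 15 largest rises. Several of these, such as Gdpd2, Slc22a13b and Tex29, started from means between the arrays' lower quartile and median.

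The deepest falls were of unrelated genes. Cd80, a costimulatory ligand for T cells, went from 5.38, 4.03 and 5.00 to 2.89, 2.46 and 2.59 (-2.16 ± 0.37, adjusted p = 0.0256), or 4.46-fold. The low arrays spread widely, but none came near the high arrays, and its relative Cd86 was dim and at 0.08 ± 0.14. Ano3 read 3.79, 3.56 and 4.09 in low and 2.18, 2.44 and 2.16 in high (-1.55 ± 0.14, adjusted p = 0.00262), the smallest p of the named genes, and it passed in 6 of 6 fits that left out an iPSC array. Mrps36 was at 5.98, 6.14 and 5.99 in low and 5.11, 3.84 and 3.98 in high (-1.72 ± 0.30, adjusted p = 0.0273). Its product was named a mitochondrial ribosomal protein and later placed in the 2-oxoglutarate dehydrogenase complex. Eif4a3l1, a copy of an RNA helicase gene whose signal may be shared, fell by 1.53 ± 0.27 to values of 0.97, 1.06 and 0.87, below the lower quartile.

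The other large falls included the GTPase-activating Arap2 (-1.08 ± 0.20), the aminotransferase-like Got1l1 (-1.03 ± 0.21), Nrp (-0.91 ± 0.16), Mapk1ip1 (-0.89 ± 0.15) and the zinc finger gene Zfp750 (-0.84 ± 0.14). Calr4, of the calreticulin family, fell by 0.81 ± 0.14 (adjusted p = 0.0251, or 0.0509 with the replicate block). Snhg20, a noncoding host of a small nucleolar RNA, read 6.05, 6.36 and 6.28 in low and 5.40, 5.42 and 5.02 in high (-0.95 ± 0.15, adjusted p = 0.0173). It was the 1 call among 21 such host genes, of which Snhg7 (-0.91 ± 0.27), Snhg3 (-0.59 ± 0.18) and Snhg16 (-0.48 ± 0.14) had the high arrays below the low arrays without passing. The MYC antagonist Mxd4 rose by 0.58 ± 0.11 (adjusted p = 0.0403, or 0.0674 with the block), the 1 call among 12 members of the Myc family list.

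Few genes of the mitochondrion itself passed the test in iPSC. Of 44 measured complex I genes, 27 of complexes II to IV with cytochrome c, 10 of ATP synthase, 30 of the TCA cycle and 22 of glycolysis, 0 passed (limma), and the medians were 0.05, 0.07, 0.05, 0.02 and -0.01. At an unadjusted p under 0.05 there were 4, 2, 0, 1 and 1 members in those lists, and 0 passed in any of them with the replicate block. Cytochrome c (Cycs) was at 4.08, 3.65 and 3.39 in low and 4.31, 4.59 and 4.68 in high. These groups did not overlap, but the difference of 0.82 ± 0.25 did not pass (adjusted p = 0.18). Cox7a2, a cytochrome c oxidase subunit, was at 0.30 ± 0.12, the complex I subunit Ndufa12 at -0.36 ± 0.12 and the assembly factor Ndufaf2 at -0.44 ± 0.15. Of 76 mitochondrial ribosome genes Mrps36 fell, 1 had its high arrays on top and 7 had them below. Mrps10 was at -0.56 ± 0.17, Mrpl49 at -0.33 ± 0.08 and Mrps26 at 0.44 ± 0.14.

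Import, carrier and DNA upkeep genes had 0 calls among 31, 47 and 18 members (limma), with medians of -0.04, -0.07 and -0.12. In 7, 9 and 4 of them the high arrays lay wholly below the low arrays (against 9.57% of all probe sets). Counts at an unadjusted p under 0.05 were 4, 11 and 6, and with the replicate block 0 passed. The lists do not hold every related gene. Tomm20l, named as like an import receptor gene, and the DNA helicase gene Pif1 lie outside them and were picked after their values were seen. Both were called higher, at 0.71 and 0.78 in iPSC (0.16 and 0.89 in ESC). Timm21, of the inner membrane translocase, was at -0.69 ± 0.20 and the chaperone cofactor Grpel2 at -0.41 ± 0.10 (adjusted p = 0.0866). The carrier Slc25a40 was at -0.62 ± 0.15 (adjusted p = 0.0867) and Slc25a34 at 0.49 ± 0.13. Polg2, which helps DNA polymerase gamma copy the mitochondrial genome, read 5.86, 6.06 and 5.82 in low and 6.37, 6.87 and 6.89 in high (0.80 ± 0.23, adjusted p = 0.153). Tfam, which packages mitochondrial DNA, overlapped between groups at -0.39 ± 0.14. The coactivator Ppargc1a was at -0.32 ± 0.12 from a dim level. Mtfr2, a fission regulator, was at 0.58 ± 0.18 (adjusted p = 0.18, or 0.0216 with the replicate block).

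Dye content also depends on export. Of 15 measured efflux pump genes 0 passed (limma), 1 had an unadjusted p under 0.05, and the median was -0.02. That gene was Abcb1b, whose P-glycoprotein pumps many cationic drugs out of cells. It was at 6.40, 5.28 and 6.25 in low and 5.06, 4.41 and 4.97 in high. The groups did not overlap, low array 3 lay close to the high group, and the difference of -1.17 ± 0.28 missed the threshold (adjusted p = 0.0877) but passed with the block (0.0211). Its paralog Abcb1a was at -0.22 ± 0.16 and Abcg2 at -0.08 ± 0.15. None of 28 antioxidant enzymes passed (limma; 3 at an unadjusted p under 0.05 and 0 with the replicate block). Sod1 was at 0.95 ± 0.33, with low array 4 (4.85) inside the range of the high arrays, and without that array Sod1 passed (adjusted p = 0.0399).

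Pluripotency genes lay close to 0. Of 28 measured core and naive genes 0 passed (limma), 0 had an unadjusted p under 0.05, 0 passed with the replicate block, 0 had high arrays wholly above and 3 wholly below, and the median was -0.02. Pou5f1 was at -0.16 ± 0.11, Nanog at -0.07 ± 0.08 and Sox2 at -0.10 ± 0.10. Esrrb (-0.04 ± 0.09), Klf4 (0.04 ± 0.13), Tfcp2l1 (-0.01 ± 0.10) and Zfp42 (0.02 ± 0.11) lay around 0. Dppa3, linked to the germ line, was at 0.38 ± 0.28, and the exit markers Otx2 and Fgf5 were at 0.11 ± 0.61 and 0.13 ± 0.16. Among 22 formative and primed, 24 mesoderm, 23 endoderm, 20 neural and 13 trophoblast genes, 0 passed (limma), also with the replicate block. There were 2, 3, 2, 1 and 2 at an unadjusted p under 0.05, and the lists had medians of 0.03, 0.12, -0.02, 0.11 and 0.06.

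The 2-cell-like state is a rare totipotent-like condition of cultured stem cells. Of 18 measured members 0 were called (limma), 5 had an unadjusted p under 0.05, 8 had the high arrays wholly below (44.4%, against 9.57% of all probe sets) 4 had a difference above 0 and the median was -0.31. Zscan4e, its defining gene family, read 4.56, 5.54 and 6.29 in low and 1.41, 2.44 and 2.52 in high. The gap was large and the spread within groups also large: -3.35 ± 0.83 (adjusted p = 0.0927, or 0.00509 with the replicate block). Zscan4d (-1.08 ± 0.52), Zscan4c (-1.10 ± 0.71) and Tmem92 (-1.58 ± 0.39, adjusted p = 0.0902) also had the high arrays below all low arrays. Pramel19, of a multicopy family where the copy is uncertain, was at -2.43 ± 0.58 (adjusted p = 0.0877, or 0.017 with the block).

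Of 13 blood and macrophage markers 1 rose. Cd68, a lysosomal glycoprotein abundant in macrophages, read 8.71, 8.41 and 8.41 in low and 9.14, 9.03 and 9.37 in high (0.67 ± 0.13, adjusted p = 0.048, or 0.0746 with the replicate block). The defining genes of those cells were dim, with means in low and high of 1.75 and 1.82 for Ptprc, 2.03 and 1.92 for Adgre1 and 2.71 and 2.87 for Csf1r. Those of Cd14 were 2.14 and 1.89, of Itgam 3.36 and 3.08, and of Spi1 5.06 and 4.95. The summed level of these 7 markers, of which Cd68 was by far the brightest, was 8.66 to 8.90 in low and 9.17 to 9.51 in high. In the list of 13, 1 was higher and 3 were lower at an unadjusted p under 0.05. The list of 33 lysosome and autophagy genes had 0 calls (limma), 2 genes at an unadjusted p under 0.05, 0 with the block and 7 with the high arrays wholly below. Oas1g, an interferon-induced gene of a family that may share signal, rose by 0.95 ± 0.18 (adjusted p = 0.0392, or 0.0547 with the block), the 1 call among 27 interferon response genes, and Oas2 was at 0.55 ± 0.14.

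Whether a difference was particular to iPSC was asked by testing the iPSC difference minus the ESC difference. At an adjusted p under 0.05, 0 probe sets passed (0%; limma), and 1100 (4.36%) had an unadjusted p under 0.05. With the replicate block 1 passed, Fthl17b, a ferritin-like gene. Its iPSC difference was 0.90 ± 0.34 (adjusted p = 0.276, or 0.0126 with the block), and its ESC difference was -0.62 ± 0.34. ESC differences were not used to choose the iPSC calls, but the ESC arrays share the estimate of spread that decides which probe sets pass. With the 6 iPSC arrays alone 100 passed, of which 66 were among the 138 calls. The ESC counts that follow are therefore not independent of the choice. Of the 88 probe sets higher in iPSC high, 84 were above 0 in ESC, 76 had an unadjusted p under 0.05 in that direction (4.52% of all probe sets) and 45 passed (0.305%). Of the 50 lower ones, all 50 were below 0 in ESC, 35 had an unadjusted p under 0.05 (3.76%) and 8 passed (0.0516%). Median differences were 0.86 in iPSC and 0.73 in ESC for the higher calls, and -0.77 and -0.44 for the lower calls. The iPSC medians describe values that chose these probe sets and are no test. In 14 of the 88 and 20 of the 50, the iPSC minus ESC difference had an unadjusted p under 0.05 (limma). The share over all probe sets was 4.36%. That difference holds the same iPSC values that chose these probe sets. The choice itself can raise these counts, so they are no test of a difference particular to iPSC.

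The values that stood furthest apart between the cell types are given as values, none past the threshold. Among those higher in iPSC, the retinoic acid hydroxylase Cyp26b1 was at 0.76 ± 0.11 in iPSC and -0.07 ± 0.11 in ESC, and the defensin Defa22 at 0.88 ± 0.16 (adjusted p = 0.0367, or 0.0509 with the block) and -0.51 ± 0.16. Lrtm2 was at 0.70 ± 0.13 and -0.16 ± 0.13, Pramel11 at 0.22 ± 0.15 and -0.91 ± 0.15, and Robo3 at 0.19 ± 0.10 and -0.47 ± 0.10. Of these 5, Cyp26b1, Defa22 and Lrtm2 passed within iPSC. In the other direction, Ano3 was at -1.55 ± 0.14 and -0.43 ± 0.14, and the Polycomb gene Bmi1 at -0.63 ± 0.18 and 0.40 ± 0.18. The isomerase Idi2 was at 0.02 ± 0.12 and 0.90 ± 0.12, Zfp976 at -0.56 ± 0.13 and 0.24 ± 0.13, and Apoo-ps at -0.76 ± 0.19 (adjusted p = 0.0938, or 0.0407 with the block) and 0.28 ± 0.19. The microRNA set had medians of 0.73 and 0.81, the mitotic lists 0.15 and 0.19, and the p53 targets -0.29 and -0.17, in iPSC and ESC.

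**Figure D5:**
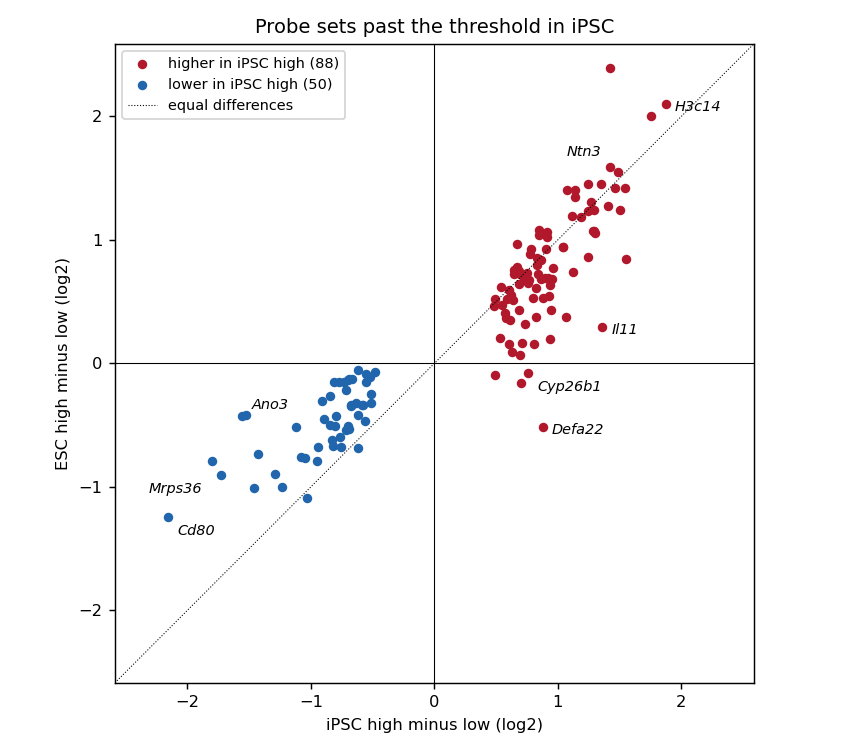
The 138 probe sets past the threshold in iPSC are placed by their log2 difference high minus low in iPSC (x axis) and in ESC (y axis), red where higher and blue where lower in iPSC high. The dotted line marks equal differences. Of the red points 84 of 88 lie above 0 in ESC and all 50 blue points lie below.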

How the data were processed

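Gene expression was measured on Affymetrix arrays from total RNA of sorted cells. The authors deposited RMA output, a log2 value for each probe set and array. The submitters' processing notes name affy 1.36.1 and R 2.15.1 as software. Background correction, quantile normalization and probe summary are part of RMA. Chip definition and genome build were not given in the sources used here. With 3 arrays per group, their number limits the precision.

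Of 25206 probe sets, 23185 had 1 gene symbol in the platform annotation, 0 had several and 2021 had none. Tests used limma 3.58.1 in R 4.3.3, with 1 mean per group over 12 arrays, no block, 8 residual degrees of freedom and Benjamini-Hochberg adjustment over all probe sets. Adjusted p-values are limma's, errors of differences are SE of the fit, and all differences are log2. Figures used matplotlib 3.10.9.

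The members and the 54 gene lists were chosen with earlier results of these data known. Named genes were the 15 largest rises and 15 largest falls past the threshold with no overlap between groups (predicted, microRNA, small nucleolar RNA and olfactory or vomeronasal receptor genes left out), up to 6 lowest p per list, fixed genes, 5 each way for the iPSC minus ESC difference, and relatives. Beside the markers of cell type, some genes outside the rule were chosen after their values were seen. These genes are 6 of the called microRNA genes, Mir673, Mir882, Mir1247, Dscc1, Casp2, Casp8ap2, Cdca2, Fthl17b, Tbr1, Tomm20l, Pif1, Birc5 and Cdca8. Alternatives were a replicate block, the 6 iPSC arrays alone, median centring, quantile normalization, a filter on dim probe sets, an intensity trend with robust variances, array weights and leaving out each array. The low and high arrays of equal number correlated in their residuals at 0.107, 0.127 and 0.213 in iPSC, all above those of unequal numbers. Pairing by number is an inference from the data, and only the fits with the replicate block used it. Counts, SE and adjusted p-values given without mention of the block come from the unblocked fit, which ignores that pairing. Data were also simulated with the observed spread and independent normal noise, with changes put only into probe sets above the median level. There 44.8% of log2 changes of 0.5, 88.1% of 1 and 98.5% of 2 were recovered in the iPSC comparison, and 6.1% of the calls were false. These rates do not cover changes in dimmer probe sets or paired arrays.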

Additional observations from a re-analysis of the deposited data

How the results depend on the processing

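The counts of probe sets higher and lower in iPSC high (88 and 50) ranged from 0 to 148 and from 1 to 63 when an array was left out. They were 142 and 94 with the replicate block, 6 and 3 with the replicate block on the 6 iPSC arrays alone, and 152 and 91 with array weights. The lower count was 85 with median centring and 89 among probe sets above the median level. With the replicate block the difference between cell types had 1 call. The leave-out ranges were 0 to 18 for the mitotic lists, 0 to 6 for p53 targets, 0 to 4 for G1/S genes and 0 to 19 for the microRNA genes between Meg3 and Dio3, an alternative set chosen after seeing the data. The mitotic count of 17 was 7 with the 6 iPSC arrays alone, 0 with the block on them, 26 above the median level and 27 with the trend. The p53 count of 6 was 2 and 0 with the 6 iPSC arrays alone, without and with the block. The G1/S count of 3 was 1 and 0 there, and 1 with quantile normalization. The microRNA count of 12 was 21 with the replicate block, 19 with array weights and 1 with the block on the 6 iPSC arrays alone. Among the 164 single genes followed across settings, the sign turned for 9, none of them called. With median centring these were Klf4 (-0.02), Zfp42 (-0.03), Rtl1 (-0.05) and Idi2 (-0.04), and with quantile normalization Esrrb (0.00), Tfcp2l1 (0.02), Rtl1 (-0.04), Dlk1 (-0.00) and Idi2 (-0.06). Leaving out an array gave ranges of -0.09 to 0.02 for Esrrb, -0.07 to 0.05 for Tfcp2l1, -0.10 to 0.15 for Klf4, -0.03 to 0.06 for Zfp42, -0.04 to 0.27 for Fgf5, -0.26 to 0.42 for Otx2, -0.25 to 0.25 for Rtl1 and -0.10 to 0.08 for Idi2. The cause was not tested. Of the 164 genes, the replicate block ended 14 calls and made 8, which are given beside the genes, and it changed no other call.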
